A study of Mus musculus with 34 samples.

Results

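Type I interferon stimulated genes are the genes that cells switch on when interferon alpha or beta binds its receptor, and 38 of them were followed here in CD4+ spleen cells of inbred mice. Members were chosen by name, and each was read from the brightest probe set listed with that gene alone. Of the 38 members, 35 had such a probe set, among 19938 genes in all. Testing was limited to the 11413 genes with at least 1 of 10 group means at or above 5.327, the median over all values, and 35 members were among them. Mx1 and Mx2 passed through 1 group only, 129X1/SvJ at T0, so a difference involving that group was built into their passing. Ifit3 passed through C57BL/6J and 129X1/SvJ at T0 only, so its differences from the other groups were partly built in too. Isg15 shared its probe set with the transcript Gm9706, Oas1g shared one with Oas1a, and no probe set was listed for Ifi44, so these 3 members were not tested.

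The mice were females aged 8 weeks of 5 inbred strains: 129X1/SvJ, C57BL/6J, A/J, DBA/2J and Balb/c. Their CD4+ spleen cells, mostly helper T cells, were taken with magnetic beads and measured on Affymetrix arrays either unstimulated (T0) or after 4 h with phorbol 12-myristate 13-acetate (PMA) at 10 ng/ml and ionomycin at 1 uM (T1). This pair of drugs activates protein kinase C and raises cell calcium, which bypasses the T cell receptor. The medium of all groups held fetal calf serum, and the labels name no interferon among the agents. Each time had 4 arrays for A/J, 4 for C57BL/6J, 3 for Balb/c, 3 for DBA/2J and 3 for 129X1/SvJ, 34 in all. The labels call the replicates biological and do not say whether spleens were pooled. They leave unclear whether the T0 cells were cultured for the same hours, so effects of culture and of the drugs cannot be told apart in T1 against T0. Values are log2 intensities, so a difference of 1 is a doubling, and they show the share of a transcript in the RNA rather than its amount per cell.

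The interferon receptor, made of Ifnar1 and Ifnar2, signals through the kinases Jak1 and Tyk2 to a complex of transcription factors that includes Stat2 and Irf9. This complex binds the interferon-stimulated response element in promoters and turns on genes that sense viral RNA, block viral translation and replication, or tag proteins with Isg15. Resting lymphocytes keep a low basal expression of many of these genes through tonic interferon signalling, while PMA and ionomycin act chiefly through AP-1, NF-kappaB and NFAT factors.

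The core of the response element is shown first because it is the sequence through which interferon is known to act on such genes. The core, GAAA followed by any 2 bases and GAAA again, was searched on both strands of RefSeq promoter windows (GRCm38.p6). They run from 250 bases before to 50 after a listed start. For some genes, Ifit3 and Oas3 among them, that start lay inside the gene's span, and some genes had several windows. Read on the other strand, the core is TTTC, any 2 bases and TTTC. Windows were given for 28 members, and 11 of them (39.3%) held the core, against 3.99% of 27025 genes. The stretches below run 5′ to 3′ along each gene's own strand, and capitals mark every match to the core.

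Ifit1 (chr19:34640755-34640843, plus strand): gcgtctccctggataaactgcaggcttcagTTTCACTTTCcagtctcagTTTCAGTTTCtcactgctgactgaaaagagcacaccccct

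Oas3 (chr5:120777695-120777764, minus strand): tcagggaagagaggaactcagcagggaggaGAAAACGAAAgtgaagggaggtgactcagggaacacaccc

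Bst2 (chr8:71537557-71537632, minus strand): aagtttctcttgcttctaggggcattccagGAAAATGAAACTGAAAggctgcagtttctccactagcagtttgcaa

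Rsad2 (chr12:26456533-26456602, minus strand): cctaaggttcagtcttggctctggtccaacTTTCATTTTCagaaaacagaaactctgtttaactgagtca

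Ddx58 (chr4:40239804-40239833, minus strand): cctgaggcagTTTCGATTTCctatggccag

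Ifih1 (chr2:62646206-62646233, minus strand): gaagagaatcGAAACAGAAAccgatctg

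Ifit1 held 2 separate matches, and Bst2 held 2 that overlap by GAAA. In Ddx58 and Ifih1 the match lay just after the gene start. The other 5 members with the core were Ifit3, Oas1a, Oas1g, Eif2ak2 and Isg15. The AP-1 site TGANTCA was in 6 of the 28 (21.4%, against 8.97% of genes) and the STAT core TTCNNNGAA in 6 (21.4%, against 9.55%). A match is a run of letters, not a shown binding site. Members that share the core did not move alike after stimulation: of the 9 with their own probe set, 6 fell, 1 rose and 2 did not pass the test, in a comparison in which 46.3% of all genes tested fell and 36% rose. Of the 16 measured members whose window lacked the core, 13 fell, 1 rose and 2 did not pass.

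Some members are neighbours in the genome. Parp14 (chr16:35831892-35871518), Dtx3l (chr16:35926515-35939027) and Parp9 (chr16:35938470-35972621) follow one another, and the spans of Dtx3l and Parp9 overlap at their ends. Ifit2 (chr19:34550550-34576534), Ifit3 (chr19:34583119-34588982) and Ifit1 (chr19:34640889-34650009) form another cluster. Oasl2 (chr5:114896926-114912245) lies beside Oasl1 (chr5:114923143-114937911), Mx1 (chr16:97447035-97462906) near Mx2 (chr16:97536081-97560901), and Rsad2 (chr12:26442743-26456452) near Cmpk2 (chr12:26469117-26479837). Probe sequences were not used here, so reads of near-identical copies such as the Oas1 and Ifit3 genes are uncertain. Strain variants under the probes could not be checked either. A strain difference in log2 intensity below may therefore not be one in RNA, which was not tested.

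Array medians ran from 5.28 to 5.39, and arrays of a group correlated at 0.945 to 0.992 over the genes tested. Balb/c T1 replicate 2 stood lowest, with a mean correlation of 0.948 with its group. T cell markers were present, Cd4 at a mean of 9.40 at T0 and 8.54 at T1. The cells also carried RNA of other types, since the B cell gene Cd79b averaged 10.26 at T0, the neutrophil gene S100a9 7.48 and the red cell precursor gene Alas2 9.76. In such bulk samples, fewer cells of a type and less RNA per cell cannot be told apart. C57BL/6J T0 replicate 1 stood apart for the interferon genes. It was the highest of the 17 T0 arrays for 28 of the 35 members, while this held for 7.89% of all genes tested. The mean of the 35 members was 8.27 on that array and 7.21, 7.41 and 7.03 on the other C57BL/6J T0 arrays. The main counts and several results on C57BL/6J are therefore given with and without it.

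**Figure D1:**
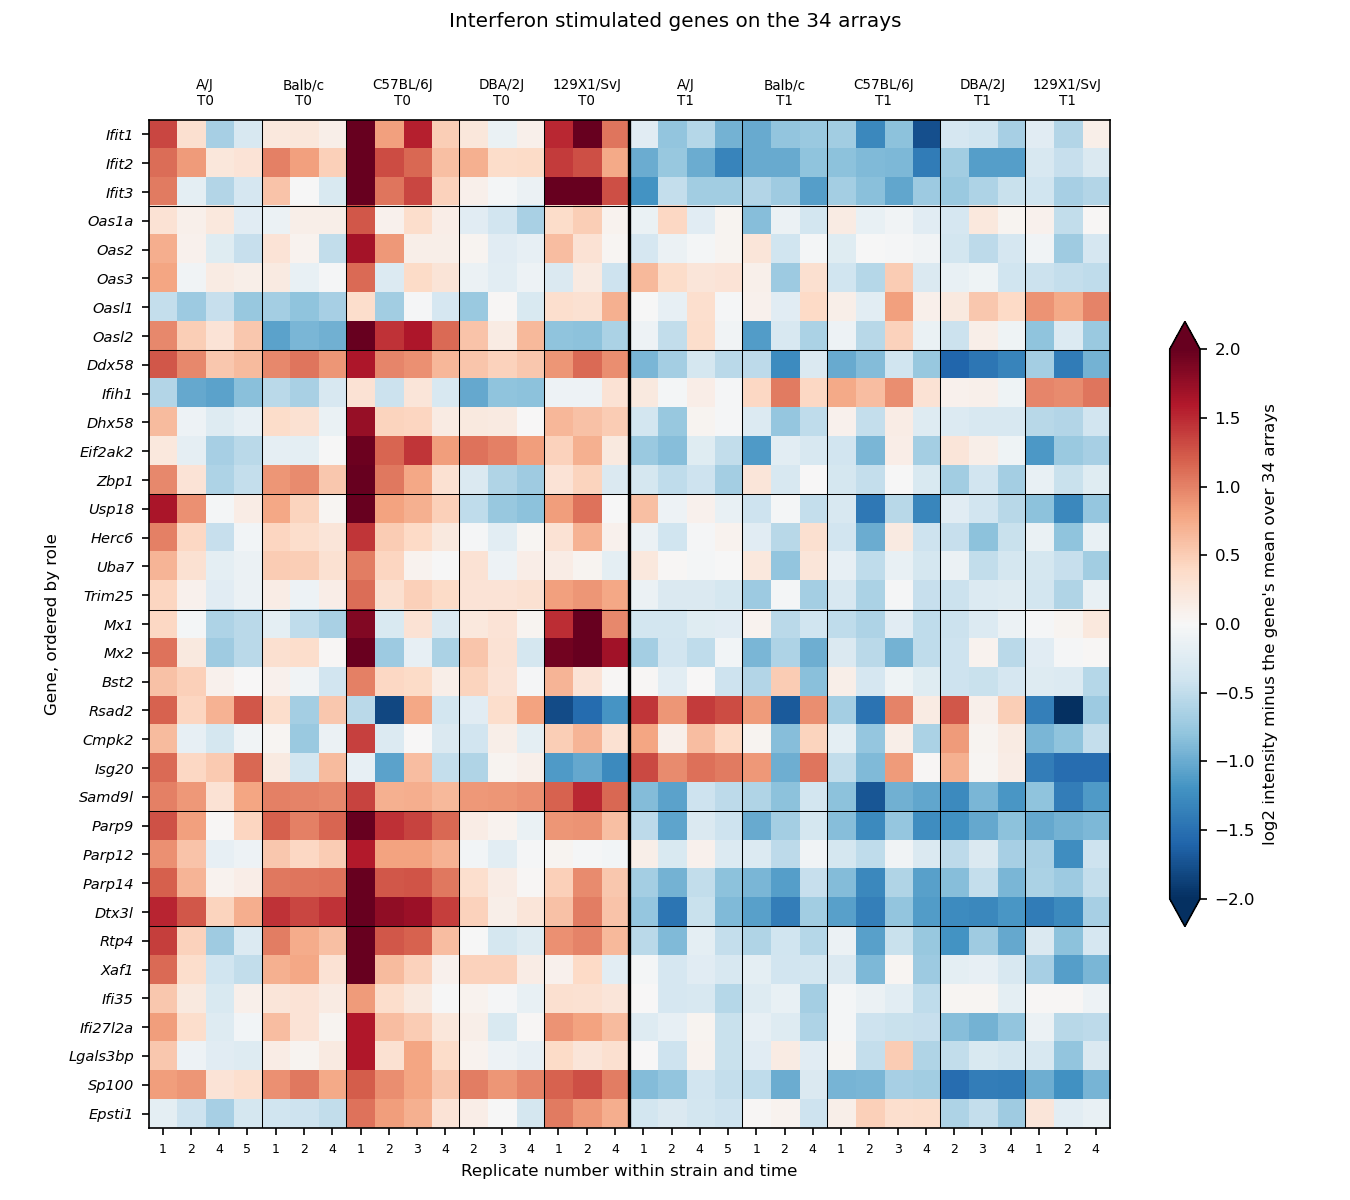
Each row is 1 of the 35 tested members, ordered by role, and each column 1 of the 34 arrays, named by strain, time and replicate number. Colour gives the log2 intensity minus the gene's mean over the 34 arrays (red higher, blue lower). Most rows turn from red at T0 to blue at T1, Ifih1 and Oasl1 turn the other way, and C57BL/6J T0 replicate 1 is the darkest red column.

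The comparison of T1 with T0 asks how stimulation changed the interferon program, averaged over the 5 strains. Interferon stimulated genes mostly fell: 29 of the 35 were lower at T1 and 2 were higher (limma, adjusted p under 0.05), where 46.3% of all genes tested fell and 36% rose. Their median change was -0.67, against -0.07 over all genes. A called fall of at least 1 log2 was measured for 10 members (28.6%), against 9.58% of all genes. Without C57BL/6J T0 replicate 1 the counts were 28 and 2 and the median change -0.60. Both counts of falls include Ifit3, Mx1, Mx2, Eif2ak2 and Dhx58. These passed the filter through T0 groups only, which partly fixed the direction of their changes. Of the 35, 24 had a lower mean at T1 in each of the 5 strains, 2 a higher mean in each, and 9 went both ways. These directions were not counted over all genes. The largest falls were of genes that modify proteins with ADP-ribose and ubiquitin, of the RNA sensor Ddx58 and of Samd9l, Sp100 and the Ifit genes.

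The Parp and Dtx3l genes fell together, 4 of 4, with a median of -1.60. Dtx3l (probe set 10439268), a ubiquitin ligase that pairs with Parp9, ran from 7.78 to 9.79 at T0 (median 8.91) and from 6.20 to 7.21 at T1 (median 6.55). It fell by 2.11 log2 (SE 0.10, adjusted p = 4.22e-18, limma), a 4.30-fold drop and the largest of the 35. Parp9, an ADP-ribosyltransferase family member, ran from 7.23 to 9.41 (median 8.26) and then from 6.10 to 7.07 (median 6.46), a fall of 1.67 (SE 0.10, adjusted p = 5.88e-16). Parp14, which attaches single ADP-ribose units, ran from 8.65 to 10.64 (median 9.57) and then from 7.34 to 8.17 (median 7.81), a fall of 1.54 (SE 0.10, adjusted p = 4.53e-15). For these 3 neighbouring genes every T0 array lay above every T1 array, as it did for 17.5% of all genes tested. Parp12, which acts against alphaviruses, fell by 0.72 (SE 0.10) with overlapping arrays.

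The Ifit genes, whose proteins bind viral RNA and block its translation, fell 3 of 3, with a median of -1.42. Ifit2 (probe set 10462613) ran from 6.71 to 8.57 at T0 (median 7.31) and from 5.09 to 6.19 at T1 (median 5.59). It fell by 1.72 (SE 0.11, adjusted p = 1.97e-15, limma), with no overlap between the times. Ifit3 ran from 4.29 to 8.08 (median 5.33) and then from 3.68 to 4.47 (median 4.18), a fall of 1.42 (SE 0.18, adjusted p = 1.44e-08). Ifit1, shown above with 2 core matches, ran from 5.91 to 9.35 (median 6.90) and then from 4.81 to 6.69 (median 5.88), a fall of 1.34 (SE 0.17, adjusted p = 3.08e-08). Of the 10 group means of Ifit3, 8 lay under 5.327, a range in which much of the reading may be background, and the size of its fall is not exact.

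Sensors of foreign nucleic acid split. Ddx58 (probe set 10512067), which encodes RIG-I, the sensor of short viral RNA with 5′ triphosphates, ran from 8.13 to 9.29 at T0 (median 8.58) and from 6.08 to 7.38 at T1 (median 6.81). It fell by 1.78 (SE 0.09, adjusted p = 3.79e-17, limma), a 3.43-fold drop. Ifih1 (probe set 10483110), which encodes MDA5, the sensor of long double-stranded RNA, ran from 6.22 to 7.58 at T0 (median 6.76) and from 7.21 to 8.36 at T1 (median 7.71). It rose by 0.93 (SE 0.08, adjusted p = 1.54e-12), a 1.91-fold rise, and was called in all 5 strains. The sister sensors thus went in opposite directions in 17 of 17 pairs of same-numbered arrays. Dhx58, a regulator of both that lacks their signalling domains, fell by 0.67 (SE 0.11), to T1 means all under 5.327. Eif2ak2, the kinase PKR that stops translation on double-stranded RNA, fell by 0.94 (SE 0.11), with 7 of its group means under 5.327. Dhx58 and Eif2ak2 passed the filter through T0 groups only, so the filter partly fixed the direction of their changes. Zbp1, a sensor of Z-form nucleic acid that can start cell death, fell by 0.64 (SE 0.14).

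The OAS family makes or resembles enzymes that make 2-5 oligoadenylate, which turns on RNase L. Its 5 measured members split into 3 that fell, 1 that rose and 1 that did not pass, with a median of -0.22. Oasl1 (probe set 10524631), an OAS-like protein without enzyme activity, ran from 6.43 to 7.95 at T0 (median 6.77) and from 7.01 to 8.23 at T1 (median 7.43). It rose by 0.59 (SE 0.10, adjusted p = 1.43e-06, limma) in 16 of 17 pairs, although arrays of the 2 times overlapped. Its neighbour Oasl2 fell by 0.50 (SE 0.11), Oas2 by 0.38 (SE 0.12) and Oas1a by 0.22 (SE 0.10, adjusted p = 0.0372). The call of Oas1a was lost without C57BL/6J T0 replicate 1 (adjusted p = 0.0559). Oas3 changed by -0.18 (SE 0.12, adjusted p = 0.151).

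In the Isg15 system, 4 of 4 measured members fell, with a median of -0.66. Usp18, which removes Isg15 and also restrains the interferon receptor, fell by 0.91 (SE 0.17, adjusted p = 9.97e-06, limma). Trim25, a ubiquitin ligase that helps activate RIG-I, fell by 0.71 (SE 0.08). Herc6, the ligase that attaches Isg15 in mice, fell by 0.62 (SE 0.13) and Uba7, the activating enzyme, by 0.45 (SE 0.10).

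Of the 7 antiviral effectors 4 fell and 3 did not pass. Samd9l (probe set 10542911), which restricts poxviruses, ran from 6.94 to 8.17 at T0 (median 7.57) and from 4.94 to 6.29 at T1 (median 5.74). It fell by 1.89 (SE 0.09, adjusted p = 1.96e-18, limma), a 3.69-fold drop with no overlap. Bst2, or tetherin, which holds budding virions at the cell surface, fell by 0.51 (SE 0.10). Mx2 fell by 0.93 (SE 0.18) and Mx1 by 0.54 (SE 0.14), both dynamin-like GTPases with 9 group means under 5.327. Rsad2, or viperin, changed by 0.20 (SE 0.25, adjusted p = 0.46), Isg20, an RNA exonuclease, by 0.15 (SE 0.17, adjusted p = 0.433), and Cmpk2, a nucleotide kinase of mitochondria, by -0.14 (SE 0.15, adjusted p = 0.389).

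The 7 remaining measured members fell, with a median of -0.83. Sp100 (probe set 10347948), a protein of nuclear bodies, ran from 8.80 to 9.82 at T0 (median 9.45) and from 7.0 to 8.24 at T1 (median 7.62). It fell by 1.80 (SE 0.07, adjusted p = 5.39e-20, limma), a 3.48-fold drop with no overlap. Rtp4, a chaperone of receptors at the cell surface, fell by 1.22 (SE 0.15). Xaf1, a factor that promotes apoptosis, fell by 0.84 (SE 0.15) and Ifi27l2a by 0.83 (SE 0.10). Smaller falls were measured for Lgals3bp (0.48, SE 0.11), Ifi35 (0.38, SE 0.08) and Epsti1 (0.29, SE 0.07).

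The members whose T0 arrays all lay above all T1 arrays were Ifit2, Ddx58, Samd9l, Parp9, Parp14, Dtx3l and Sp100. They were 7 of 35, a share near that of all genes (17.5%). The same 7 were the members called as falling in each of the 5 strains, which was not counted over all genes. No member had all T1 arrays above all T0 arrays, which 9.28% of genes did.

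**Figure D2:**
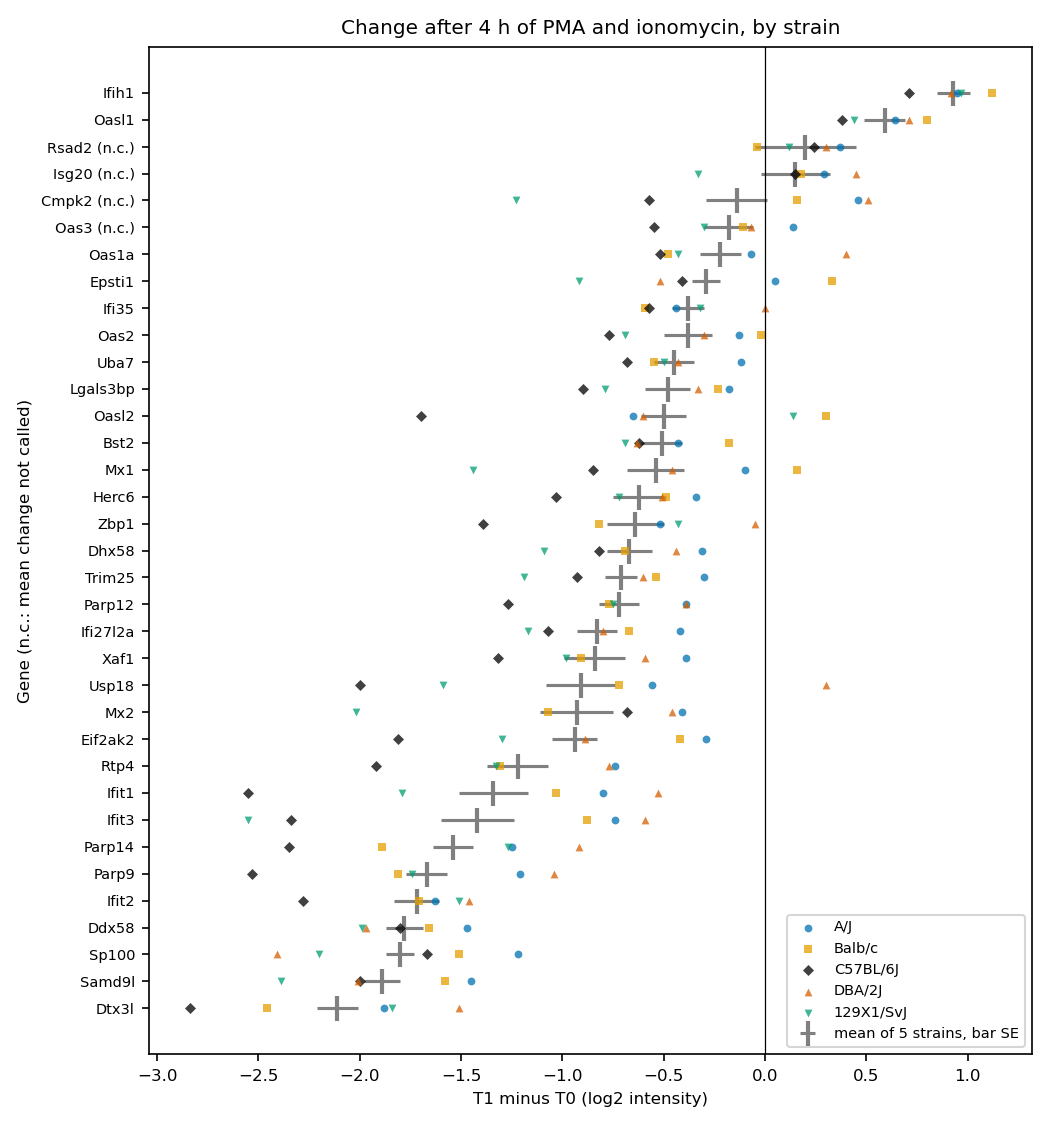
The horizontal axis gives T1 minus T0 in log2 intensity for each member, with 1 symbol per strain and a grey cross and bar for the mean of the 5 strains with its SE; n.c. marks members not called. Ifih1 lies highest at 0.93 and Dtx3l lowest at -2.11, and C57BL/6J and 129X1/SvJ lie at the left end for most genes.

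Markers of other cell types moved over the same contrast, in which 46.3% of all genes tested fell and 36% rose. Of 8 measured B cell markers 7 fell and 1 rose, and their mean ran from 7.26 to 8.98 on T0 arrays and from 5.99 to 6.60 on T1 arrays. Of 6 markers of plasmacytoid dendritic cells, which are known as strong producers of interferon alpha, 4 fell (mean 6.41 to 7.87 at T0, 5.67 to 6.18 at T1). All 7 measured neutrophil markers fell (4.96 to 7.77, then 4.30 to 5.93), as did 3 of 8 myeloid markers, of which 1 rose (6.09 to 7.46, then 5.76 to 6.90). Of 5 measured markers of CD8 T and NK cells, 4 fell and 1 rose (5.54 to 6.93, then 5.34 to 6.21). T cell markers fell too, 4 of 6 (9.58 to 10.07, then 8.70 to 9.62). Of 4 platelet markers 1 was measured, and it did not pass (-0.11, adjusted p = 0.0989). Red cell precursor markers did not follow, with 0 of 7 called by limma and a median change of 0.19. The part of these shifts in the members' falls was not tested.

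The pathway around the members fell in part as well, by the same test, in which 46.3% of all genes fell and 36% rose. All 6 receptor and kinase genes fell: Ifngr1 changed by -2.70, Ifnar1 by -1.37, Ifngr2 by -1.07, Tyk2 by -0.67, Jak1 by -0.59 and Ifnar2 by -0.41. Of 8 measured transcription factors 6 fell, namely Irf2 by 1.70, Stat2 by 1.39, Irf7 by 1.08, Irf9 by 0.88, Irf5 by 0.50 and Irf3 by 0.28. The other 2 rose, Irf8 by 1.79 and Irf1 by 0.25. Among 6 measured sensing adaptors and receptors, Ikbke fell by 1.57, Tlr9 by 1.05, Myd88 by 0.80, Mavs by 0.71 and Tbk1 by 0.23, and Tlr7 rose by 0.83. Of 6 listed ligands 2 were measured and both rose, Ifng by 5.26 and Ifna5 by 0.21. Of 5 negative regulators, Socs3 rose by 1.26 and Ptpn2 by 0.73, Ptpn6 fell by 1.36 and Pias1 by 0.49, and Socs1 changed by 0.12 (adjusted p = 0.194). Ifng, the type II interferon, thus rose while both chains of its receptor and most interferon stimulated genes fell.

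Within strains the count of falling members varied. In A/J 10 of 35 fell and 2 rose (36.3% and 20.3% of all genes), with a median of -0.39. In Balb/c 18 fell and 2 rose (34.1% and 20.6%), with a median of -0.59. In C57BL/6J 29 fell and 1 rose (38.6% and 25.1%), with a median of -1.03. In DBA/2J 13 fell and 2 rose (36.2% and 23.8%), with a median of -0.51. In 129X1/SvJ 25 fell and 1 rose (34.7% and 21.6%), with a median of -1.09. With all arrays, the share of members that fell was thus above that of all genes in C57BL/6J, 129X1/SvJ and Balb/c. It was near that of all genes in DBA/2J and below it in A/J. The share that rose was below that of all genes in each strain. Without C57BL/6J T0 replicate 1, 13 members fell in A/J, beside 36.2% of all genes. The A/J and Balb/c falls also moved with other single arrays, as given below, so their place beside all genes is not firm. Of the 33 members with a lower mean at T1 in some strain, the largest fall was in C57BL/6J for 18 and in 129X1/SvJ for 12. Without C57BL/6J T0 replicate 1 this order turned, to 12 in C57BL/6J and 16 in 129X1/SvJ, and C57BL/6J had 23 falls and 2 rises and a median of -0.77. Single arrays also moved other counts: the A/J falls were 16 without A/J T0 replicate 4 (21 with array weights), the Balb/c falls 11 without Balb/c T0 replicate 1 or without Balb/c T1 replicate 4, the C57BL/6J rises 2 without C57BL/6J T1 replicate 2, and the DBA/2J rises 1 without DBA/2J T0 replicate 2.

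Before stimulation the strains differed widely in these genes. At T0, 23 of 35 members differed between strains (moderated F test over 5 strains, limma), 65.7% against 18.5% of all genes. The median range of strain means was 0.91, against 0.27 over all genes. Among the 23, C57BL/6J was highest for 12, 129X1/SvJ for 9 and A/J for 2, while DBA/2J was lowest for 13. The 23 include Ifit3, Mx1, Mx2 and Eif2ak2, whose strain differences at T0 were partly fixed by the filter. Without C57BL/6J T0 replicate 1, C57BL/6J was highest for 8 of 21, 129X1/SvJ for 10 and A/J for 2, and DBA/2J was lowest for 11. The spread within groups was wide too, with a median SD of 0.36 for members and 0.16 for all genes. The 21 that differed without that array were 60% of the members, against 17.2% of all genes.

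Oasl2 (probe set 10524621) had the widest range at T0. Its 4 arrays of C57BL/6J read 8.25, 7.42, 7.60 and 7.11, and those of A/J 6.94, 6.47, 6.25 and 6.52. DBA/2J read 6.55, 6.14 and 6.62, 129X1/SvJ 5.17, 5.15 and 5.35, and Balb/c 4.91, 5.06 and 5.01. Each C57BL/6J array lay above every other T0 array, and the Balb/c and 129X1/SvJ arrays lay below all the rest and around the filter limit. C57BL/6J exceeded the mean of the other 4 strains by 1.79 (SE 0.18, adjusted p = 9.13e-09), and the range over strains was 2.60 (adjusted p = 1.39e-09), its low end under the limit and so not exact. Without replicate 1 the C57BL/6J difference was 1.58 (adjusted p = 3e-07).

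Rsad2 and Isg20 were both highest in A/J and lowest in 129X1/SvJ. At T0 the mean of Rsad2 was 9.26 ± 0.39 (SD, n = 4) for A/J, 8.68 ± 0.52 (n = 3) for DBA/2J and 8.45 ± 0.65 (n = 3) for Balb/c. For C57BL/6J it was 7.89 ± 1.05 (n = 4), and for 129X1/SvJ 6.88 ± 0.31 (n = 3). Its range of 2.38 passed the F test (adjusted p = 0.015), as did that of Isg20, 1.95 (adjusted p = 0.0046), from 8.86 ± 0.39 (n = 4) in A/J to 6.90 ± 0.12 (n = 3) in 129X1/SvJ. In Rsad2, arrays of Balb/c, DBA/2J and C57BL/6J overlapped with those of A/J, and those of 129X1/SvJ did not. The mean of 7 markers of red cell precursors followed the same order as Rsad2 at T0: 8.41 for A/J, 8.01 for DBA/2J, 7.67 for Balb/c, 6.67 for C57BL/6J and 5.11 for 129X1/SvJ. Within C57BL/6J at T0, Rsad2 read 7.84, 6.56, 9.14 and 8.00, and the marker mean on the same arrays 6.55, 5.79, 7.73 and 6.62. Within Balb/c at T1, Rsad2 read 9.22, 6.69 and 9.30, and the marker mean 8.42, 5.94 and 8.79. The part of such cells in the levels of Rsad2 and Isg20 was not tested.

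Ifit3, Mx1 and Mx2 were high in 129X1/SvJ. Ifit3 read 7.02, 7.44 and 6.16 in 129X1/SvJ at T0 and 8.08, 5.95, 6.21 and 5.33 in C57BL/6J. In the other strains it read 5.91, 4.67, 4.29 and 4.54 (A/J), 5.44, 4.87 and 4.57 (Balb/c) and 4.98, 4.83 and 4.76 (DBA/2J). Its range was 2.03 (adjusted p = 0.000114), and 129X1/SvJ exceeded the other strains by 1.61 (SE 0.33, adjusted p = 0.000889). Since Ifit3 passed the filter only through 129X1/SvJ and C57BL/6J at T0, the filter partly fixed both results. Mx1 read 6.00, 6.64 and 5.49 in 129X1/SvJ, 6.37, 4.22, 4.81 and 4.23 in C57BL/6J, and 4.93 or less on each array of A/J, Balb/c and DBA/2J. Mx2 read 6.67, 6.97 and 6.42 in 129X1/SvJ and 6.72, 4.01, 4.58 and 4.11 in C57BL/6J. Its arrays read 5.82, 4.93, 4.03 and 4.21 in A/J, 5.06, 5.10 and 4.77 in Balb/c, and 5.3, 5.03 and 4.39 in DBA/2J. For both Mx genes, the lone C57BL/6J array among the high values was replicate 1. The ranges, 1.97 for Mx1 and 1.94 for Mx2, are given as a description, since both genes passed the filter through 129X1/SvJ alone and their other strain means lay under the limit.

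Usp18 was set apart by a low strain. It read 6.72, 6.47 and 6.40 in DBA/2J at T0, below every other T0 array. A/J read 8.86, 8.13, 7.19 and 7.37, Balb/c 8.00, 7.66 and 7.26, C57BL/6J 9.62, 8.03, 7.94 and 7.70, and 129X1/SvJ 8.06, 8.31 and 7.21. DBA/2J lay below the mean of the others (difference -1.40, SE 0.30, adjusted p = 0.00284), and the range was 1.79 (adjusted p = 0.00625). Eif2ak2 and Zbp1 each ranged over 1.64. Eif2ak2 read 6.89, 6.09, 6.35 and 5.77 in C57BL/6J and 6.02, 5.93 and 5.77 in DBA/2J. It read 5.39, 5.63 and 5.12 in 129X1/SvJ, 5.14, 4.74, 4.26 and 4.39 in A/J and 4.74, 4.73 and 4.92 in Balb/c (adjusted p = 4e-06). C57BL/6J and DBA/2J thus lay above all other arrays. Since Eif2ak2 passed the filter only through C57BL/6J, DBA/2J and 129X1/SvJ at T0, the filter partly fixed its range. Zbp1 averaged 8.52 ± 0.86 (SD, n = 4) in C57BL/6J and 6.88 ± 0.23 (n = 3) in DBA/2J (adjusted p = 0.00106). Without replicate 1 the C57BL/6J mean of Zbp1 was 8.12, below the 8.2 of Balb/c, so the high end of its range rested on that array. The strains still differed without it (F test, adjusted p = 0.00142).

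Epsti1 ranged over 1.31 at T0 (adjusted p = 9.76e-09). It read 7.02, 6.77, 6.64 and 6.21 in C57BL/6J and 6.97, 6.80 and 6.65 in 129X1/SvJ. It read 5.73, 5.51, 5.26 and 5.58 in A/J, 5.53, 5.52 and 5.44 in Balb/c, and 6.06, 5.92 and 5.58 in DBA/2J. The 7 arrays of the first 2 strains lay above all 10 of the others. The neighbours Oasl1 and Oasl2 went different ways in 129X1/SvJ at T0: Oasl1 was 0.91 above the other strains (SE 0.18, adjusted p = 0.000534) and Oasl2 below them (difference -1.17, SE 0.20, adjusted p = 9.86e-05). Parp9, Parp14 and Dtx3l were lowest in DBA/2J, with differences of -0.99, -0.74 and -0.95, and highest in C57BL/6J, with differences of 0.85, 0.79 and 0.90, each with an adjusted p of at most 0.00904.

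**Figure D3:**
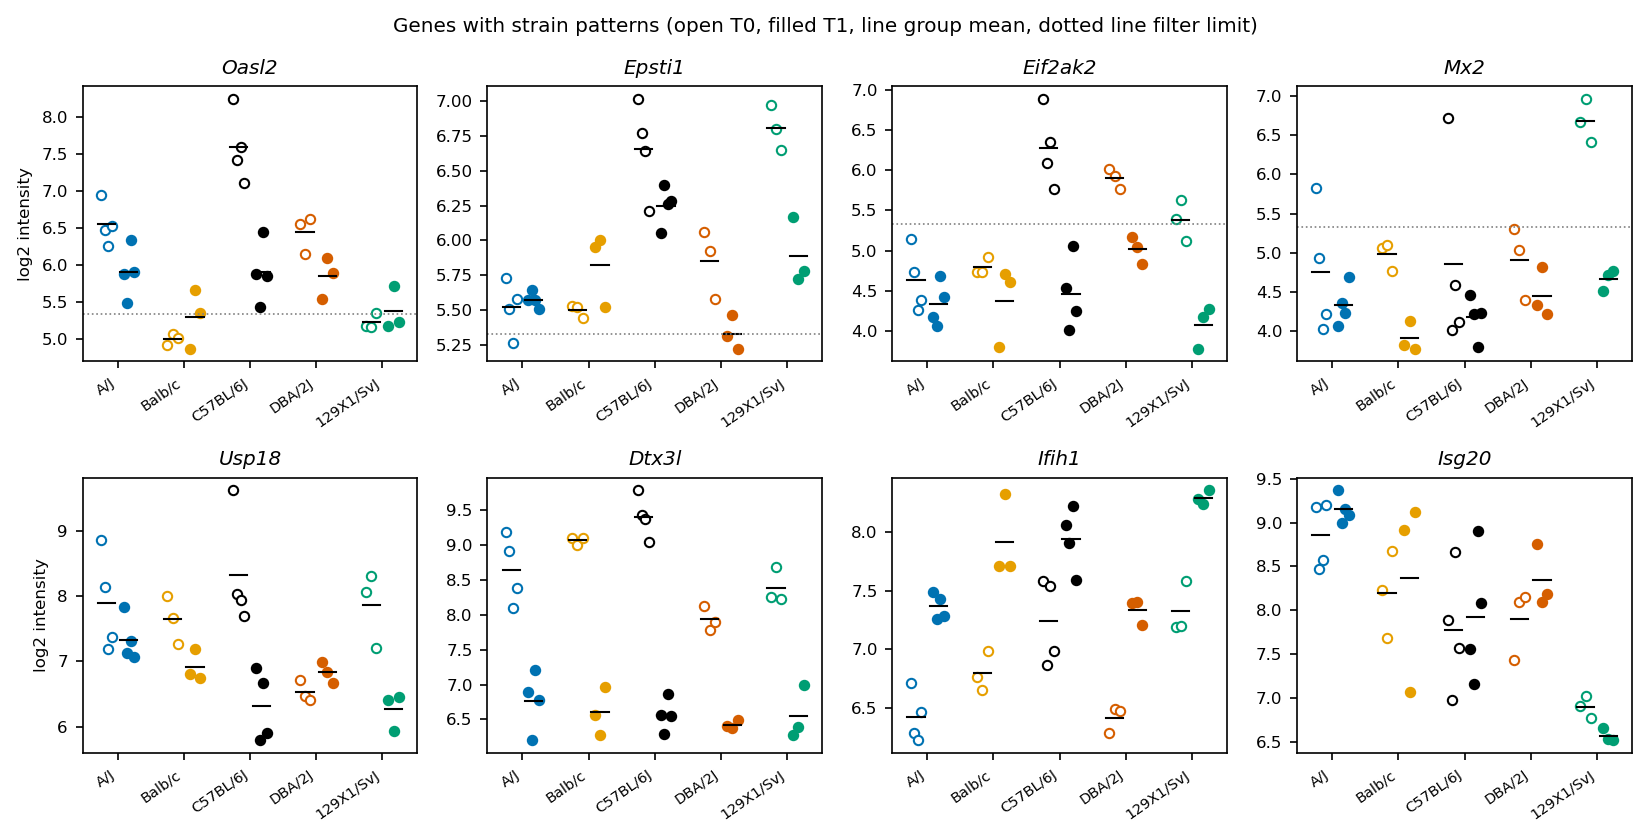
The vertical axes give log2 intensity of 8 members by strain, 1 point per array (open T0, filled T1), with a line at each group mean and a dotted line at the filter limit of 5.327 where it falls in the panel. The open points of Oasl2 are highest in C57BL/6J and lowest in Balb/c, those of Mx2 are high in 129X1/SvJ and on 1 C57BL/6J array, and Isg20 is low in 129X1/SvJ at both times.

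Each strain was also set against the mean of the other 4 at T0. In C57BL/6J 15 members were higher and 0 lower (5.81% and 3.11% of all genes). With replicate 1 left out, 7 were higher and 1 lower, where 4.46% and 2.44% of genes were. The 7 were Oasl2, Eif2ak2, Parp9, Parp12, Parp14, Dtx3l and Epsti1. The 8 that were no longer called were Ifit1, Ifit3, Oas2, Ifih1, Zbp1, Usp18, Rtp4 and Lgals3bp, and the 1 lower was Mx2, which passed the filter through its high values in 129X1/SvJ. In 129X1/SvJ 8 members were higher and 3 lower (4.05% and 5.39%). The 8 were Mx2, Ifit3, Mx1, Ifit1, Epsti1, Oasl1, Ifih1 and Trim25, and the 3 were Rsad2, Isg20 and Oasl2. The calls of Mx1, Mx2 and Ifit3 were partly fixed by the filter, as were any calls of these genes and of Eif2ak2 in the other strains. In DBA/2J 0 were higher and 8 lower (2.85% and 3.5%), namely Usp18, Zbp1, Rtp4, Parp9, Dtx3l, Parp14, Oas1a and Ifih1. In A/J 2 were higher and 4 lower (3.05% and 4.16%), and in Balb/c 0 and 4 (2.04% and 1.5%). These contrasts share arrays, so they are not independent of each other.

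**Figure D4:**
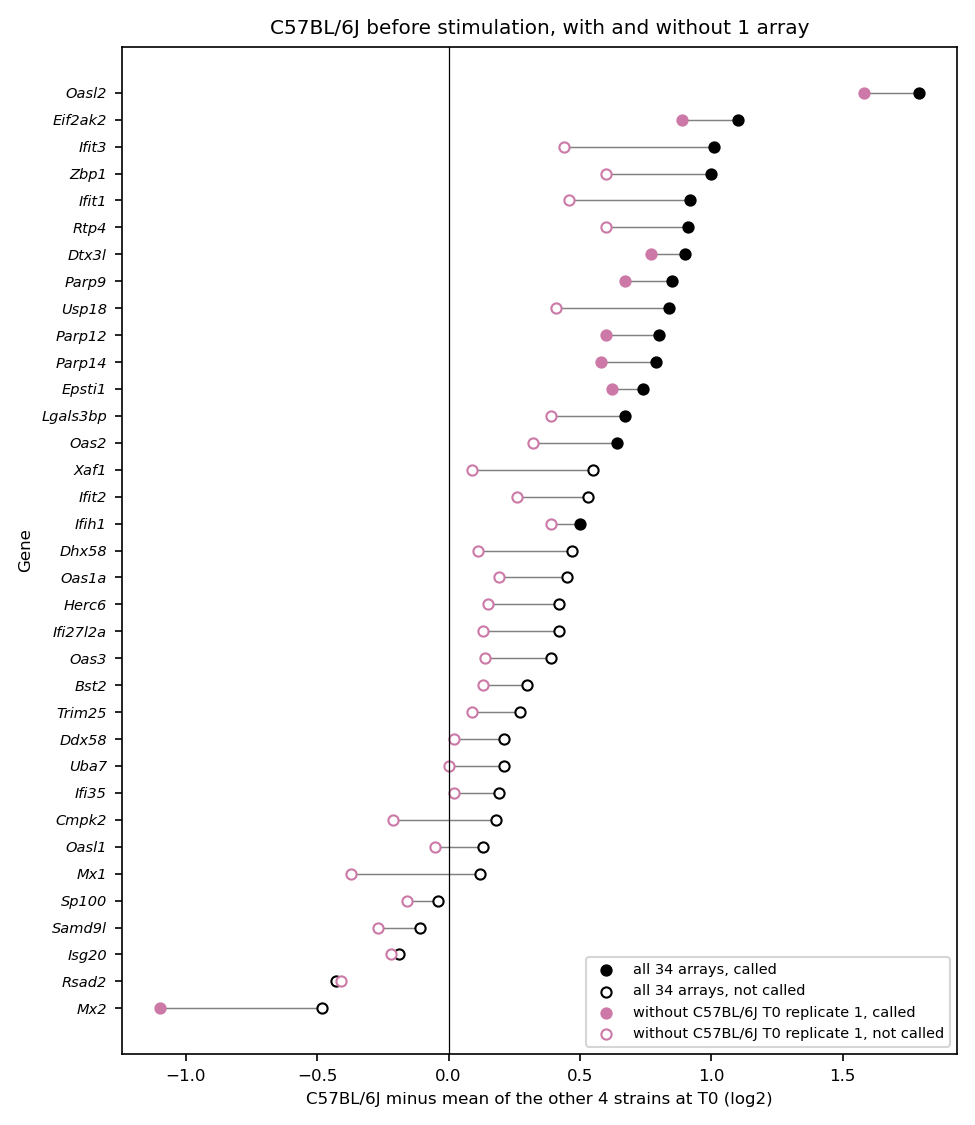
The horizontal axis gives C57BL/6J minus the mean of the other 4 strains at T0 in log2 intensity for each member, with all 34 arrays (black) and without C57BL/6J T0 replicate 1 (pink); filled points passed an adjusted p of 0.05. Most pink points lie nearer to 0, 7 of the 15 higher calls stay filled, and Mx2 becomes a lower call at -1.10.

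The mean of the 35 members summarises the T0 order without a test. It was 7.48 ± 0.55 (SD, n = 4) in C57BL/6J, or 7.22 ± 0.19 (n = 3) without replicate 1, which puts C57BL/6J level with 129X1/SvJ. It was 7.24 ± 0.17 (n = 3) in 129X1/SvJ, 6.98 ± 0.10 (n = 3) in Balb/c, 6.94 ± 0.43 (n = 4) in A/J and 6.79 ± 0.06 (n = 3) in DBA/2J. C57BL/6J and 129X1/SvJ, Balb/c and A/J, and A/J and DBA/2J differed by less than the larger SD of each pair, while 129X1/SvJ and Balb/c did not. At T1 it lay between 6.22 and 6.5 in every strain. Of the marker means at T0, that of B cells was highest in 129X1/SvJ (8.67) and DBA/2J (8.53), and that of plasmacytoid dendritic cells in DBA/2J (7.75), where the members were lowest. The mean of CD8 T and NK markers was highest in C57BL/6J (6.52, or 6.49 without replicate 1), and that of neutrophil markers was lowest there (5.25, or 5.33). On C57BL/6J T0 replicate 1 these means were 8.14 for B cells, 7.0 for plasmacytoid dendritic cells, 6.60 for CD8 T and NK cells and 5.02 for neutrophils. Their part in the strain differences was not tested.

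**Figure D5:**
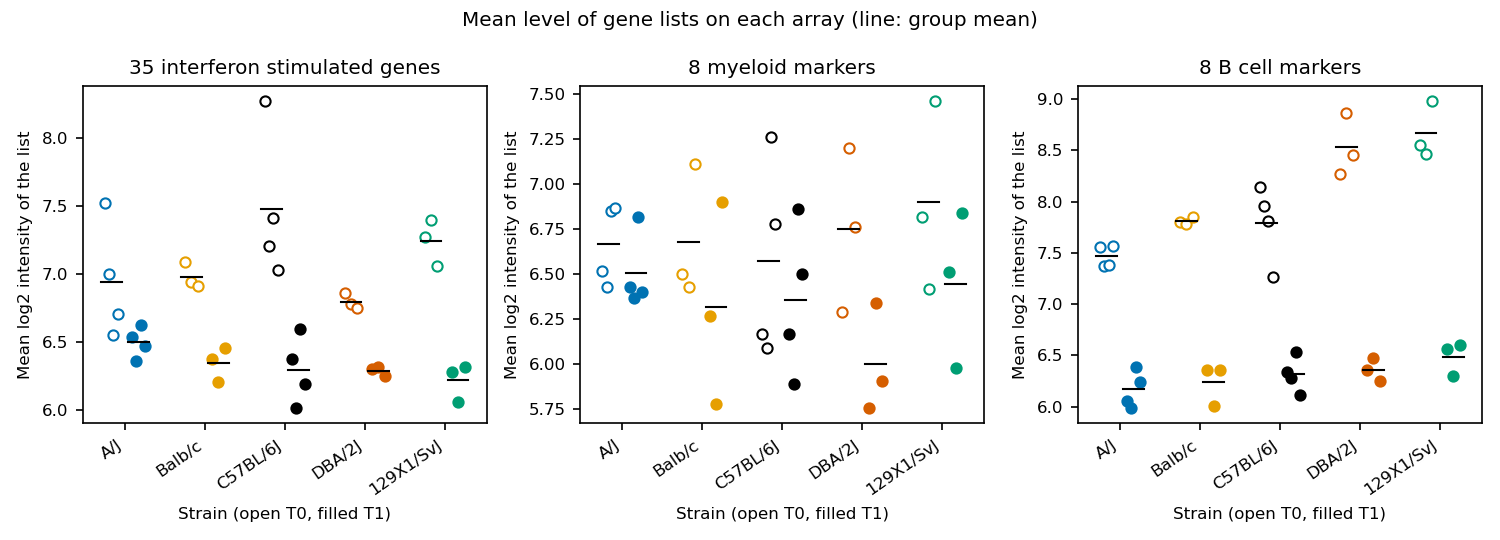
The vertical axes give the mean log2 intensity of the 35 members (left), 8 myeloid markers (middle) and 8 B cell markers (right) on each array, by strain, open for T0 and filled for T1, with lines at group means. Members run from 6.55 to 8.27 at T0 and from 6.02 to 6.63 at T1, and B cell markers are highest in DBA/2J and 129X1/SvJ at T0.

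After stimulation fewer of these genes were called. At T1, 8 of 35 members differed between strains, 22.9% against 31% of all genes. The median range of strain means was still wider for members, 0.61 against 0.34 over all genes. The 8 were Rsad2, Isg20, Cmpk2, Ifih1, Epsti1, Oasl1, Sp100 and Ddx58. The count was 13 (37.1%) without Balb/c T1 replicate 2, against 36.8% of all genes, and 13 without C57BL/6J T0 replicate 1, against 30.3%, so the share below that of all genes rested on single arrays. A smaller count at T1 than at T0 is not itself a test, and the change in strain differences is tested below as the response.

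Rsad2 had the widest range at T1, 2.64 (adjusted p = 0.00468), and Isg20 the next, 2.58 (adjusted p = 0.00016). Isg20 read 9.37, 8.99, 9.15 and 9.09 in A/J, 8.91, 7.07 and 9.12 in Balb/c, and 7.56, 7.16, 8.90 and 8.08 in C57BL/6J. It read 8.76, 8.09 and 8.19 in DBA/2J and 6.66, 6.53 and 6.52 in 129X1/SvJ, the last below every other T1 array. Cmpk2, the neighbour of Rsad2, averaged 6.19 ± 0.29 (SD, n = 4) in A/J and 4.98 ± 0.23 (n = 3) in 129X1/SvJ, and these ends lay 1.21 apart (adjusted p = 0.0178). Ifih1 read 8.28, 8.24 and 8.36 in 129X1/SvJ and 7.39, 7.40 and 7.21 in DBA/2J. It read 7.49, 7.26, 7.43 and 7.28 in A/J, 7.71, 8.33 and 7.71 in Balb/c, and 8.06, 7.91, 8.22 and 7.59 in C57BL/6J. Its range was 0.96 (adjusted p = 0.000196), beside 0.91 at T0 (adjusted p = 4.93e-05), with 129X1/SvJ highest and DBA/2J lowest at both times.

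The remaining 4 had ranges under 1. Epsti1 averaged 6.25 ± 0.15 (SD, n = 4) in C57BL/6J and 5.33 ± 0.12 (n = 3) in DBA/2J (range 0.91, adjusted p = 0.000286). Sp100 averaged 7.93 ± 0.36 (n = 3) in Balb/c and 7.09 ± 0.08 (n = 3) in DBA/2J (range 0.85, adjusted p = 0.00121). Oasl1 averaged 8.12 ± 0.11 (n = 3) in 129X1/SvJ and 7.27 ± 0.21 (n = 4) in A/J (range 0.85, adjusted p = 0.0166). Ddx58 averaged 7.05 ± 0.23 (n = 4) in A/J and 6.22 ± 0.13 (n = 3) in DBA/2J (range 0.83, adjusted p = 0.0168). Against the other 4 strains at T1, A/J had 4 members higher and 1 lower (6.62% and 8.91% of all genes), 129X1/SvJ 3 and 3 (5.94% and 5.53%), DBA/2J 1 and 4 (3.44% and 7.63%), C57BL/6J 1 and 0 (5.79% and 4.87%) and Balb/c 0 and 0 (1.06% and 0.534%).

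The response itself, T1 minus T0, differed between strains for 10 of 35 members (28.6%, against 6.92% of all genes; limma F test of the strain by time interaction). The median range of the response was 0.92, against 0.36 over all genes. Without C57BL/6J T0 replicate 1, 11 members differed (6.18% of all genes), Mx1 and Mx2 among them, whose passing of the filter partly fixed this. The calls of Ifit3 and Eif2ak2, made with and without that array, were partly fixed by the filter too. Ifit3, Usp18, Cmpk2, Oasl2, Eif2ak2, Parp9, Parp14, Dtx3l, Epsti1 and Sp100 were the 10, and for 6 of them the largest fall was in C57BL/6J. Without that array Usp18 left these 6, at -1.57 in C57BL/6J beside -1.59 in 129X1/SvJ.

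Usp18 had the widest range of responses, 2.31 (adjusted p = 0.0212). It changed by -2.0 (SE 0.34) in C57BL/6J, -1.59 (SE 0.39) in 129X1/SvJ, -0.72 (SE 0.39) in Balb/c, -0.56 (SE 0.34) in A/J and 0.30 (SE 0.39) in DBA/2J, the strain that was low at T0. Oasl2 changed by -1.70 (SE 0.22) in C57BL/6J, -0.65 in A/J, -0.60 in DBA/2J, 0.14 in 129X1/SvJ and 0.30 in Balb/c, with a range of 2.0 (adjusted p = 0.000585). Its T1 arrays ran from 4.86 to 6.44, and the 3 strains with called falls were the 3 highest at T0. Ifit3 changed by -2.55 (SE 0.42) in 129X1/SvJ and -2.34 (SE 0.36) in C57BL/6J, and by -0.88, -0.74 and -0.59 in Balb/c, A/J and DBA/2J (range 1.96, adjusted p = 0.0273). The filter, which Ifit3 passed through 129X1/SvJ and C57BL/6J at T0 only, partly fixed this difference. Without C57BL/6J T0 replicate 1 the change of Ifit3 in C57BL/6J was -1.78. Cmpk2 changed by -1.23 (SE 0.34) in 129X1/SvJ, -0.57 in C57BL/6J, 0.16 in Balb/c, 0.46 in A/J and 0.51 in DBA/2J (range 1.74, adjusted p = 0.0424).

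Eif2ak2 changed by -1.81 (SE 0.22) in C57BL/6J, -1.30 (SE 0.26) in 129X1/SvJ, -0.89 in DBA/2J, -0.42 in Balb/c and -0.29 in A/J (range 1.52, adjusted p = 0.00933). The filter, which Eif2ak2 passed only through C57BL/6J, DBA/2J and 129X1/SvJ at T0, partly fixed this difference. The neighbours Parp9, Parp14 and Dtx3l each had the largest fall in C57BL/6J and the smallest in DBA/2J. Parp9 changed by -2.53 (SE 0.20) in C57BL/6J and -1.04 (SE 0.23) in DBA/2J (range 1.49, adjusted p = 0.00667). Parp14 changed by -2.35 (SE 0.20) and -0.92 (SE 0.23) in the same strains (range 1.43, adjusted p = 0.0101). Dtx3l changed by -2.84 (SE 0.21) and -1.51 (SE 0.24) (range 1.33, adjusted p = 0.0273). Without C57BL/6J T0 replicate 1 the response of Dtx3l no longer passed (adjusted p = 0.068), whereas Parp9 (0.0184) and Parp14 (0.0222) did.

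Sp100 and Epsti1 had other orders. Sp100 changed by -2.41 (SE 0.17) in DBA/2J, -2.20 (SE 0.17) in 129X1/SvJ, -1.67 (SE 0.15) in C57BL/6J, -1.51 (SE 0.17) in Balb/c and -1.22 (SE 0.15) in A/J (range 1.19, adjusted p = 0.00321). Epsti1 changed by -0.92 (SE 0.16) in 129X1/SvJ, -0.52 in DBA/2J, -0.41 in C57BL/6J, 0.05 in A/J and 0.33 in Balb/c (range 1.24, adjusted p = 0.00228).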

How the data were processed

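The arrays measured total RNA of CD4+ spleen cells, and the authors deposited log2 intensities made by RMA, per the submitters' processing notes. Its version is not given in the sources used. GEO's platform annotation lists 35556 probe sets, and 21789 of them carry 1 gene symbol, 1621 more than 1 and 12146 no symbol. Each gene took its brightest probe set with 1 symbol, and genes whose highest group mean was under 5.327, the median of all values, were left out (8525 of 19938). One model with 10 group means was fitted to all 34 arrays with limma 3.58.1 (R 4.3.3, lmFit and eBayes). Benjamini-Hochberg adjustment ran over 11413 genes, and a call means an adjusted p under 0.05. Strains were compared by moderated F tests at each time and for the response, and each against the mean of the other 4. The scripts were tested on simulated data with known changes. Of the genes called there at an adjusted p under 0.05, 8.44% were false for the mean stimulation and 7.94% for the interaction. The members and lists were chosen with earlier results of these data known. Values were given in full for up to 8 called members with the largest falls, for those that rose, and for up to 8 called members with the widest strain ranges at each time and of the response, with up to 2 more per role. The number of arrays limits the precision, and p-values measure only the spread between these arrays. Alternatives tried were another normalization between arrays, no filter, the mean of probe sets, a mean trend with robust estimation, array weights, the replicate number as a block, and leaving out each array. Replicate numbers recur in the labels of both times, and deviations of the 17 same-numbered pairs correlated from -0.08 to 0.47 (median 0.26, 14 over 0.1). The mean correlation with other numbers of the strain had a median of -0.12. The numbers were not taken to pair the arrays, so the main fit has no block and any pairing is ignored there. Results with strain by number as a block are given below.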

Additional observations from a re-analysis of the deposited data

Results flagged for a closer look

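In 140 groups of 4 arrays (35 members in A/J and C57BL/6J at each time), the highest and lowest arrays were checked, and 6 stood apart by Dixon's critical value for 4 arrays; chance gives about 1 in 20 such groups. Of these, 3 were on C57BL/6J T0 replicate 1: Usp18 read 9.62 (others 7.70 to 8.03), Samd9l 8.01 (7.31 to 7.39) and Parp12 7.75 (6.86 to 6.97). Dhx58 read 6.07 on A/J T0 replicate 1 (others 5.18 to 5.33). At T1 in C57BL/6J, Ifit2 read 5.09 on replicate 4 (others 5.59 to 5.67) and Ifi27l2a 8.09 on replicate 1 (others 7.67 to 7.72).

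The response to stimulation differed between strains by the limma interaction F test for 10 members. The range of the response over the 5 strains was 2.31 for Usp18, 2.0 for Oasl2, 1.96 for Ifit3, 1.74 for Cmpk2, 1.52 for Eif2ak2, 1.49 for Parp9, 1.43 for Parp14, 1.33 for Dtx3l, 1.24 for Epsti1 and 1.19 for Sp100.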

How the results depend on the processing

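No called change of a member with stimulation reversed its direction in the alternatives tried for it. The strain order of the largest falls did turn without C57BL/6J T0 replicate 1, as given above. With array weights the A/J falls were 21 and the members differing at T1 13. The C57BL/6J rises were 2 after a further quantile normalization. With strain by number as a replicate block the rises were 2 for C57BL/6J and 2 for 129X1/SvJ, the falls averaged over strains stayed at 29, and the members whose response differed were 11, Ifit1 being added (adjusted p = 0.00556). The A/J falls went from 10 to 14, with Ifit1, Usp18, Bst2 and Ifi27l2a added. Of 17 same-numbered pairs 14 correlated over 0.1 (median 0.26), and 25 of 34 arrays correlated best with their own number, a hint from the data and not from the design. Leaving out 1 array at a time gave 28 to 29 falls and 2 to 2 rises for the mean stimulation. By strain the falls were 7 to 16 in A/J, 11 to 20 in Balb/c, 23 to 31 in C57BL/6J, 11 to 14 in DBA/2J and 20 to 26 in 129X1/SvJ, and the rises 2 to 2, 2 to 3, 1 to 2, 1 to 2 and 1 to 1. Members differing between strains were 18 to 25 at T0, 7 to 13 at T1 and 8 to 13 for the response. Calls of 1 strain against the rest were 34 to 49 at T0 and 13 to 20 at T1. The call of Oas1a for the mean stimulation was also lost after the further quantile normalization (adjusted p = 0.0632). Of the calls described, 16 had a limma adjusted p between 0.04 and 0.05, the nearest to it being Usp18 in C57BL/6J against the rest at T0 (0.0499), Rsad2 in A/J against the rest at T0 (0.0492) and Uba7 in Balb/c (0.0488). Signals under 5.327 limit the size of changes in Mx1, Mx2, Ifit3, Eif2ak2, Dhx58 and Oasl2 and, in 1 to 3 groups, in Oas1a, Oas2, Oas3, Cmpk2 and Xaf1. The cause of these shifts was not tested.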

Other observations

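The probe set shared by Isg15, the ubiquitin-like modifier, and Gm9706 was not tested. Its log2 intensity averaged 5.45 ± 0.28 (SD, n = 4) in A/J at T0 and 6.03 ± 0.28 (n = 4) at T1, 5.18 ± 0.26 (n = 3) and 5.89 ± 0.29 (n = 3) in Balb/c, and 5.11 ± 0.09 (n = 3) and 5.78 ± 0.41 (n = 3) in DBA/2J. In C57BL/6J it averaged 5.40 ± 0.32 (n = 4) and 5.41 ± 0.17 (n = 4), and in 129X1/SvJ 5.25 ± 0.26 (n = 3) and 5.48 ± 0.35 (n = 3). The means at T1 thus lay above those at T0 by more than either SD in A/J, Balb/c and DBA/2J only.

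The probe set shared by Oas1a and Oas1g averaged 6.08 ± 0.56 (n = 4) in C57BL/6J at T0 and 5.28 ± 0.15 (n = 3) in Balb/c, the highest and lowest strains. A probe set shared by Sp100 and 4 related transcripts, Gm7592 and Gm7609 among them, averaged 7.06 to 7.75 over strains at T0 and 5.63 to 6.05 at T1, lower at T1 in each of the 5 strains, as for the probe set of Sp100 alone.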
